A study of Homo sapiens with 12 samples.

Results

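The 44 genes described here build the N-linked glycan, place it on proteins and help the resulting glycoproteins fold in the endoplasmic reticulum (ER). They were chosen by name for these roles, not by a threshold on a measured value, but with earlier results of these data known. They make up 44 of the 61209 gene names counted. RNA was sequenced from A375, an established human melanoma cell line, in 4 groups of 3 libraries. These were OGDH-depleted cells starved of glucose for 5 h, OGDH-depleted cells with glucose, control cells starved of glucose for 5 h, and control cells with glucose; the cells with glucose are called fed. OGDH encodes a subunit of the 2-oxoglutarate dehydrogenase complex of the citric acid cycle. The sample titles mark the depleted cells as KO, whereas the design text speaks of a knockdown. The method of depletion, and whether the depleted cells are 1 clone or a pool, is not stated in the sources used. Neither do they state that each replicate library was a culture of its own. The p-values thus measure the spread between these libraries alone, which may be technical.

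N-glycosylation starts with the assembly of a branched sugar chain on the lipid dolichol phosphate, first on the cytosolic and then on the luminal face of the ER membrane. The oligosaccharyltransferase (OST) complex moves the finished chain to asparagines of newly made proteins. Glucosidases then trim the chain, and the lectins calnexin and calreticulin hold the glycoprotein until it folds, while a glucosyltransferase tags unfolded ones for another round. Glucose is a source of the sugars from which the chain is built. Many ER folding genes are known targets of the unfolded protein response, the signalling set off by misfolded proteins in the ER.

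The libraries held 21556273 to 25546615 fragments. All 44 members passed the filter on low counts, with at least 17 fragments in every library, and their mean levels ran from 1.48 CPM for SRD5A3 to 1528 CPM for CALR. CPM stands for counts scaled to the depth of each library. OGDH averaged 32.8 ± 0.904 CPM in starved depleted cells and 39.8 ± 4.68 CPM in fed depleted cells, against 131 ± 2.01 CPM in starved control cells and 154 ± 11.9 CPM in fed control cells (SD, n = 3 each). Of 10 melanoma lineage genes, SOX10 was at 299 to 670 CPM and MITF at 23.5 to 49.3 CPM, whereas the pigment cell genes PMEL, MLANA, TYR, DCT and TYRP1 and the genes S100B, S100A1 and MIA had medians of at most 2.03 CPM, with 0 for TYR. Markers of other cell types summed to 0.233 to 1.13 CPM per library for 4 leukocyte genes, 0.168 to 0.606 CPM for 2 endothelial genes, 0 to 0.303 CPM for 2 epithelial genes and 3.74 to 9.43 CPM for 3 fibroblast genes, among them LUM with up to 7.27 CPM.

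Library 3 of the starved depleted cells, library 3 of the starved control cells and library 2 of the fed control cells stood apart from the others of their groups. Mitochondrial genes took 9.71% of fragments in the outlying starved depleted library, against 3.06% and 5.12% in the other libraries of that group. In the starved control cells the outlying library had 4.11%, against 14.4% and 13.2%. In the fed control cells it had 14.6%, against 4.97% and 6.35%. Of the 44 members, 17 deviated by more than 0.3 on the log2 scale in opposite directions in the 2 outlying control libraries, 13 of them high in the starved and low in the fed one. Results that rest on these libraries are given with and without them, and the part of the mitochondrial share in the results was not tested.

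Promoter sequences are shown for the members whose window holds a motif of the unfolded protein response, because CALR and CANX had the largest rise in CPM of the 44 genes on starvation of control cells. RefSeq windows of 300 bases around the gene start (GRCh38.p14, 250 before and 50 after) were matched for 39 members; ALG10, MOGS, RPN1, STT3B and TUSC3 were not matched. The motifs searched on both strands were the ER stress response element (CCAAT, any 9 bases, CCACG), its second form (ATTGG, any base, CCACG), the unfolded protein response element TGACGTGG and the C/EBP-ATF composite element (TGATG, any base, AAT). The CCACG of the first element is also the start of the reverse complement of TGACGTGG and the end of the second form, so these motifs can overlap. The following sequences run 5′ to 3′ along the gene and stop before its start, except that of DHDDS, whose 30 bases lie on both sides of it; capitals mark the fixed letters of the motif.
CALR, chr19:12938359-12938608, plus strand: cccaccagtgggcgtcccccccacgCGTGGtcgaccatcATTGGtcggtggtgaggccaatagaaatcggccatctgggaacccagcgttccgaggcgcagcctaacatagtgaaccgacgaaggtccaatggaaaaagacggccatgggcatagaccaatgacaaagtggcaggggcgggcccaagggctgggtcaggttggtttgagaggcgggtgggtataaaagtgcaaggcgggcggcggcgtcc
CANX, chr5:179698679-179698928, plus strand: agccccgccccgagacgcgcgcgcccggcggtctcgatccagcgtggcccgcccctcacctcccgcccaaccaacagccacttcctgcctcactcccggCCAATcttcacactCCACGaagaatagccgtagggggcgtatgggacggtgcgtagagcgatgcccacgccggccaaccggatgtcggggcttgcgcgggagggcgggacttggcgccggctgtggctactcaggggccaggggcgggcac
ALG12, chr22:49918439-49918688, minus strand: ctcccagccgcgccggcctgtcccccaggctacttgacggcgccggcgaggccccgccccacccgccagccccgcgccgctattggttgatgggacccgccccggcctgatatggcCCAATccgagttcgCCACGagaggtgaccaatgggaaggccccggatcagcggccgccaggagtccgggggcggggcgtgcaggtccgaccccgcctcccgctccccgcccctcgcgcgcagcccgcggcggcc
DHDDS, chr1:26432303-26432332, plus strand: ttctgccagcgCCACGTCAtgaggaagtgc

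The ER stress response element was found in the windows of CALR, CANX and ALG12. It lies at -225 to -207 from the gene start in CALR, on the opposite strand, so that it reads there as CGTGG and ATTGG. It lies at -151 to -133 in the CANX window shown and at -134 to -116 in ALG12; 3 of the 4 RefSeq windows of CANX hold it. Of all 35114 promoter windows, 27 held this element (0.0769%). Counted by gene, it stood in 3 of the 39 matched members and in 18 of 11815 tested genes with a window (0.152%). The ALG12 copy is the same stretch of DNA that stands in the window of CRELD2, the ER protein gene that starts on the other strand. The unfolded protein response element was found in DHDDS, from -7 to 1 on the opposite strand. It stood in 256 windows in all (0.729%), and by gene in 1.12% of the tested genes with a window. The second form stood in 19 windows (0.0541%) and the composite element in 348 (0.991%), with 0 members in each. By gene these were 0.127% and 0.796% of the tested genes with a window. A match describes the letters of the window and is not a measurement of binding.

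Starvation of control cells addressed how glucose withdrawal changes these transcripts when OGDH is present. Of the 44 members, 17 rose and 1 fell in starved relative to fed control cells (edgeR quasi-likelihood test, Benjamini-Hochberg adjusted p under 0.05 over 18526 genes). The 18 called members are 40.9% of the 44, and 34.5% of all genes tested were called. The share that rose was 38.6% of the members and 17% of all genes, and the share that fell was 2.27% and 17.5%. The members' median log2 fold change was 0.24, against -0.02 for all genes. Libraries of the starved and fed control cells did not overlap in 20 of the 44 members and in 7440 of the 18526 genes. The rise was at least 2-fold in 3 members, CALR, MAGT1 and GMPPB, which is 6.82% of them, against 7.76% of all genes. In a fit of only the starved and fed control libraries, 13 of the 18 calls were kept, beside 24.6% of all genes called; DHDDS, PMM2, GMPPA, GMPPB and ALG5 were lost there (adjusted p = 0.051 to 0.056). In bulk RNA, fewer cells that express a gene and less of its RNA per cell cannot be told apart.

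Summed over the 44 members, the level was 8928 ± 180 CPM in starved control cells and 5813 ± 343 CPM in fed control cells (SD, n = 3 each). CALR and CANX together made up 2443 of the 3115 CPM between these groups, or 78.4%. In the depleted cells the sum was 5858 ± 290 CPM when starved and 5807 ± 21.4 CPM when fed. Only the starved control cells thus had a summed level outside the range of the other groups' libraries, each of which lay at or under 6103 CPM.

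**Figure D1:**
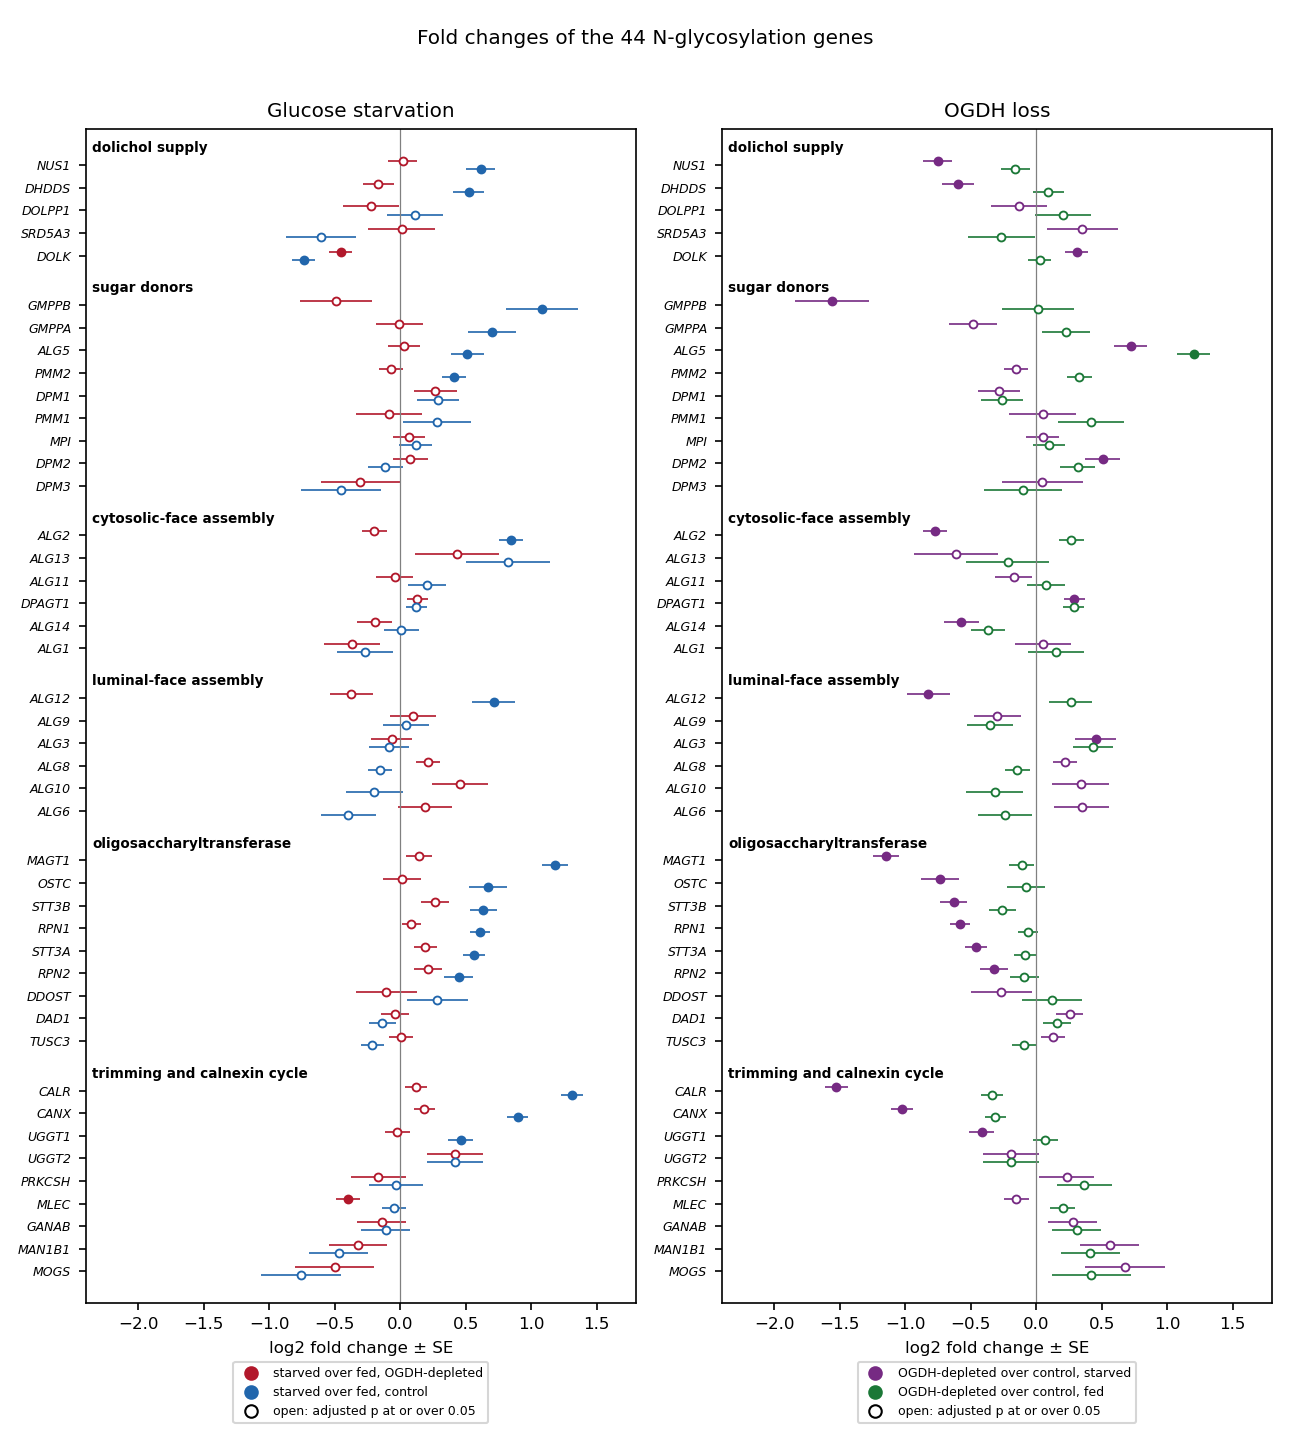
Log2 fold changes with their standard errors (horizontal axis) of the 44 genes by role, for starvation (left) and OGDH loss (right); filled points passed the adjusted threshold of 0.05. On starvation 17 genes rose in control cells and 0 in OGDH-depleted cells, and ALG5 is the 1 gene called for OGDH loss in fed cells.

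The 5 genes of dolichol supply split. NUS1 and DHDDS, which together form the enzyme that makes the long lipid chain of dolichol, rose, and DOLK, the kinase that phosphorylates dolichol, fell. NUS1 had 63.7, 68.5 and 56.5 CPM in starved control cells, against 37.7, 45.2 and 40.3 CPM in fed control cells. All 3 starved libraries were above all fed ones, with a log2 fold change of 0.61 ± 0.11 (SE, adjusted p = 0.0012). DHDDS had 54.6, 55.0 and 60.4 CPM in starved control cells, against 41.6, 32.7 and 44.1 CPM in fed control cells, without overlap (log2 fold change 0.52 ± 0.12, SE, adjusted p = 0.0055). DOLK had 18.8, 17.8 and 19.7 CPM in starved control cells, against 32.8, 29.5 and 31.6 CPM in fed control cells. Every starved library lay below every fed one (log2 fold change -0.74 ± 0.09, SE, adjusted p = 6.6e-05). SRD5A3, which acts in the last steps of dolichol synthesis, and DOLPP1, a phosphatase that recycles the lipid, did not pass the test, at -0.60 and 0.11 on the log2 scale.

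Of the 9 genes of sugar donor synthesis, 4 rose and 0 fell, beside 17% and 17.5% of all genes. In the fit of only the control libraries, 0 of the 4 that rose passed (adjusted p = 0.051 to 0.056). PMM2 makes mannose 1-phosphate, and GMPPB and GMPPA are the catalytic and the regulatory subunit of the enzyme that makes GDP-mannose from it. PMM2 had 58.9, 56.5 and 61.6 CPM in starved control cells, against 46.6, 40.2 and 46.1 CPM in fed control cells, a log2 fold change of 0.41 ± 0.09 (SE, adjusted p = 0.005). GMPPB had 44.2, 41.5 and 76.7 CPM in starved control cells, against 31.1, 17.1 and 28.5 CPM in fed control cells, a log2 fold change of 1.08 ± 0.28 (SE, adjusted p = 0.01). The highest starved and the lowest fed value of GMPPB were those of the 2 outlying control libraries, and without the outlying libraries the log2 fold change was 0.51 (adjusted p = 0.0043). GMPPB shares 54.5% of its exon bases with AMIGO3 and RNF123, and fragments that overlap several genes were not counted, so its level is uncertain. GMPPA had a log2 fold change of 0.70 ± 0.18 (SE, adjusted p = 0.012); its highest starved and lowest fed value, 48.1 and 19.2 CPM, were also those of the outlying libraries, without which the log2 fold change was 0.40 (adjusted p = 0.0017). ALG5, which makes the dolichol-linked glucose donor, had 13.6, 12.8 and 13.5 CPM in starved control cells, against 9.95, 10.2 and 7.83 CPM in fed control cells (log2 fold change 0.51 ± 0.13, SE, adjusted p = 0.0088). MPI and PMM1, of the mannose phosphate steps, and DPM1, DPM2 and DPM3, the subunits of the dolichol-linked mannose donor synthase, were not called and ranged from -0.45 to 0.29.

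Among the 6 genes that act on the cytosolic face, ALG2 rose and the others were not called. The share that rose, 16.7%, was near the 17% of all genes. ALG2, which adds mannoses to the growing chain, had 62.3, 60.2 and 57.9 CPM in starved control cells, against 30.4, 37.1 and 32.9 CPM in fed control cells. Starved libraries lay well above fed ones, at a log2 fold change of 0.85 ± 0.09 (SE, adjusted p = 3.8e-05). ALG13, a subunit of the enzyme that adds the second N-acetylglucosamine, had 96.3, 88.2 and 46.0 CPM in starved control cells, against 31.9, 62.1 and 36.0 CPM in fed control cells. The outlying libraries were the low starved and the high fed one, and the groups overlapped (log2 fold change 0.83 ± 0.32, SE, adjusted p = 0.067). Without the outlying libraries ALG13 had a log2 fold change of 1.43 (adjusted p = 4.9e-07). DPAGT1, which starts the chain, ALG14, ALG1 and ALG11 lay between -0.27 and 0.20.

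Of the 6 genes that act on the luminal face, ALG12 rose, a share of 16.7%, near the 17% of all genes. ALG12, a mannosyltransferase, had 14.1, 13 and 16.7 CPM in starved control cells, against 10.2, 7.05 and 9.46 CPM in fed control cells, without overlap. Its log2 fold change was 0.71 ± 0.16 (SE, adjusted p = 0.0056). The highest starved and the lowest fed value were those of the outlying libraries, without which the log2 fold change was 0.45 (adjusted p = 0.0029). ALG12 shares 42.3% of its exon bases with other gene names, CRELD2 among them, and counting did not use strand. CRELD2, which stands in the list of ER chaperones, had a log2 fold change of 2.51 in the same comparison. ALG6, which adds the first glucose, had 12, 11.1 and 7.74 CPM in starved control cells, against 10.9, 17.4 and 12.2 CPM in fed control cells; the groups overlapped and it was not called (log2 fold change -0.39 ± 0.21, SE, adjusted p = 0.17). The mannosyltransferases ALG3 and ALG9 and the glucosyltransferases ALG8 and ALG10 lay between -0.20 and 0.04. ALG10 has a near-identical copy, ALG10B, so its counts are uncertain; ALG10B fell by 0.81 on the log2 scale.

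Of the 9 OST subunits, 6 rose and 0 fell in starved control cells, with a median log2 fold change of 0.56. Of all genes, 17% rose and 17.5% fell. MAGT1, the oxidoreductase subunit that serves the STT3B form of the complex, had 88.9, 78.4 and 77.0 CPM in starved control cells, against 35.6, 38.2 and 34.0 CPM in fed control cells. The lowest starved library was above all fed ones by a wide margin (log2 fold change 1.18 ± 0.10, SE, adjusted p = 4.4e-06). RPN1, a scaffold subunit of both forms, had 403, 402 and 385 CPM in starved control cells, against 262, 253 and 266 CPM in fed control cells (log2 fold change 0.61 ± 0.08, SE, adjusted p = 0.0001). Both catalytic subunits rose. STT3A, of the form that works beside the translocon, had a log2 fold change of 0.56 ± 0.09 and STT3B, of the form that also glycosylates skipped sites, one of 0.64 ± 0.10 (SE, adjusted p = 0.0004 and 0.00067). OSTC, a subunit of the STT3A form, had a log2 fold change of 0.67 ± 0.14 (SE, adjusted p = 0.004), and RPN2, a shared subunit, one of 0.45 ± 0.11 (SE, adjusted p = 0.0078). DDOST, DAD1 and TUSC3 were not called.

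MAGT1 and TUSC3 take the same place in the STT3B form, and their transcripts changed rank. Per kb of exon, the ratio of MAGT1 to TUSC3 was 0.519 ± 0.0463 in starved depleted cells and 0.47 ± 0.0173 in fed depleted cells, against 1.26 ± 0.182 in starved control cells and 0.478 ± 0.0431 in fed control cells (SD, n = 3 each). Only in the starved control libraries, at 1.47, 1.18 and 1.13, was the ratio above 1. TUSC3 itself had 46.2, 50.5 and 52.2 CPM in starved control cells, against 59.9, 55.3 and 57.3 CPM in fed control cells, without overlap but not called (log2 fold change -0.21, adjusted p = 0.093). The ratio of STT3A to STT3B, also per kb, averaged 0.774 ± 0.0152 in starved and 0.816 ± 0.0541 in fed control cells (SD, n = 3 each), and the libraries overlapped.

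**Figure D2:**
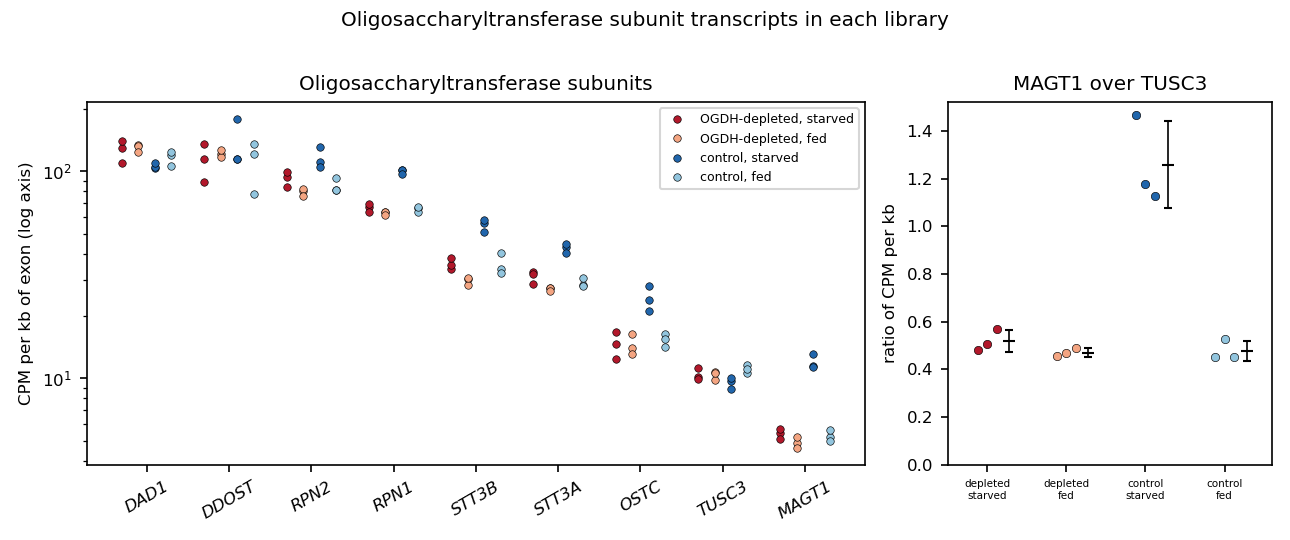
Left, CPM per kb of exon (log axis) of the 9 OST subunits in each library; right, the ratio of MAGT1 to TUSC3 in CPM per kb, with the mean and SD of 3 libraries beside the points. The starved control libraries stand at 1.13 to 1.47 in the ratio, and the other groups' means at 0.47 to 0.519.

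Of the 9 genes of trimming and the calnexin cycle, 3 rose and 0 fell, beside 17% and 17.5% of all genes. CALR, which encodes the soluble lectin chaperone calreticulin, had 2936, 3060 and 2873 CPM in starved control cells, against 1198, 1143 and 1233 CPM in fed control cells. CANX, which encodes its membrane-bound counterpart calnexin, had 1509, 1497 and 1394 CPM in starved control cells, against 770, 822 and 774 CPM in fed control cells. In both genes the 3 starved libraries stood close together and far above the fed ones, with log2 fold changes of 1.31 ± 0.09 for CALR and 0.90 ± 0.08 for CANX (SE, adjusted p = 6.5e-07 and 9.5e-06). Per kb, CALR exceeded CANX 9.9-fold ± 0.306 in starved control cells and 7.43-fold ± 0.533 in fed control cells (SD, n = 3 each), without overlap between libraries. The length used takes in all annotated exons of a gene, 2802 bases for CALR and 13764 for CANX. The size of this ratio is thus uncertain, but its change between groups does not depend on length. In CPM, CALR averaged 2956 against 1467 for CANX in starved and 1191 against 789 in fed control cells. UGGT1, the glucosyltransferase that marks unfolded glycoproteins, had 214, 202 and 196 CPM in starved control cells, against 140, 168 and 137 CPM in fed control cells (log2 fold change 0.46 ± 0.10, SE, adjusted p = 0.0033). Its paralog UGGT2 had a log2 fold change of 0.42 but was not called (adjusted p = 0.15).

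**Figure D3:**
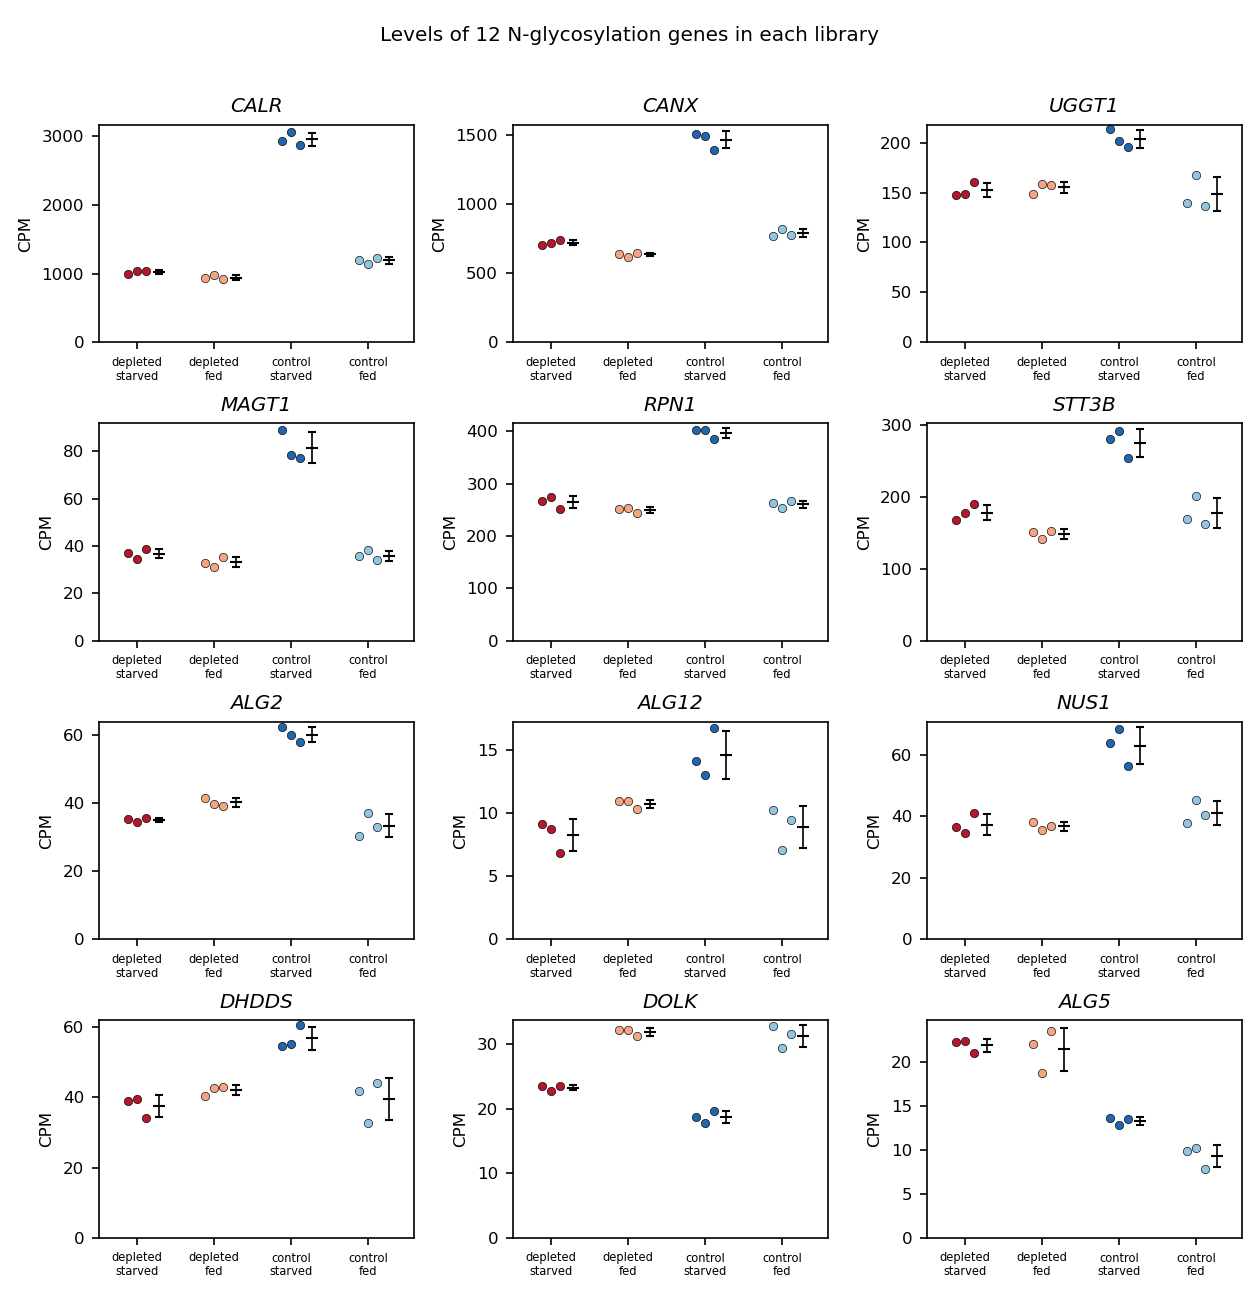
CPM of 12 of the genes in each library (points), with the mean and SD of 3 libraries beside them; the vertical axes start at 0 and differ between genes. For CALR, CANX and MAGT1 the starved control libraries stand above all others, for DOLK both starved groups stand below both fed groups, and for ALG5 both OGDH-depleted groups stand above both control groups.

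The trimming enzymes did not follow the lectins, and their values rest on the outlying libraries. MOGS, the glucosidase that removes the outermost glucose, had 41.6, 41.1 and 69.8 CPM in starved control cells, against 105, 54.7 and 98.1 CPM in fed control cells. The groups overlapped through the outlying libraries, and MOGS was not called (log2 fold change -0.76 ± 0.30, SE, adjusted p = 0.076). Without the 3 outlying libraries its log2 fold change was -1.30 ± 0.11 (SE, adjusted p = 1.6e-06). The same held for MAN1B1, the ER mannosidase, and for GANAB and PRKCSH, the catalytic and regulatory subunits of the glucosidase that removes the inner glucoses. Their log2 fold changes were -0.47, -0.11 and -0.03 in all libraries, with none called, and -0.90, -0.46 and -0.43 without the outlying ones, with all 3 called (adjusted p = 5.7e-06, 0.00095 and 0.0008). MLEC, a lectin that binds the partly trimmed chain, had a log2 fold change of -0.05.

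Over the 44 members, 31 were called without the 3 outlying libraries, 20 higher and 11 lower, and these included all 18 calls made with them. The background was then also larger, with 60.5% of 18776 genes called, 30.5% higher and 30% lower. Members called higher only without the outlying libraries were ALG13, UGGT2 and DPM1, at 1.43, 0.81 and 0.60 on the log2 scale. Those called lower only then were MOGS, MAN1B1, GANAB, PRKCSH, DPM3, ALG1, ALG3, DPM2, TUSC3 and DAD1.

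**Figure D4:**
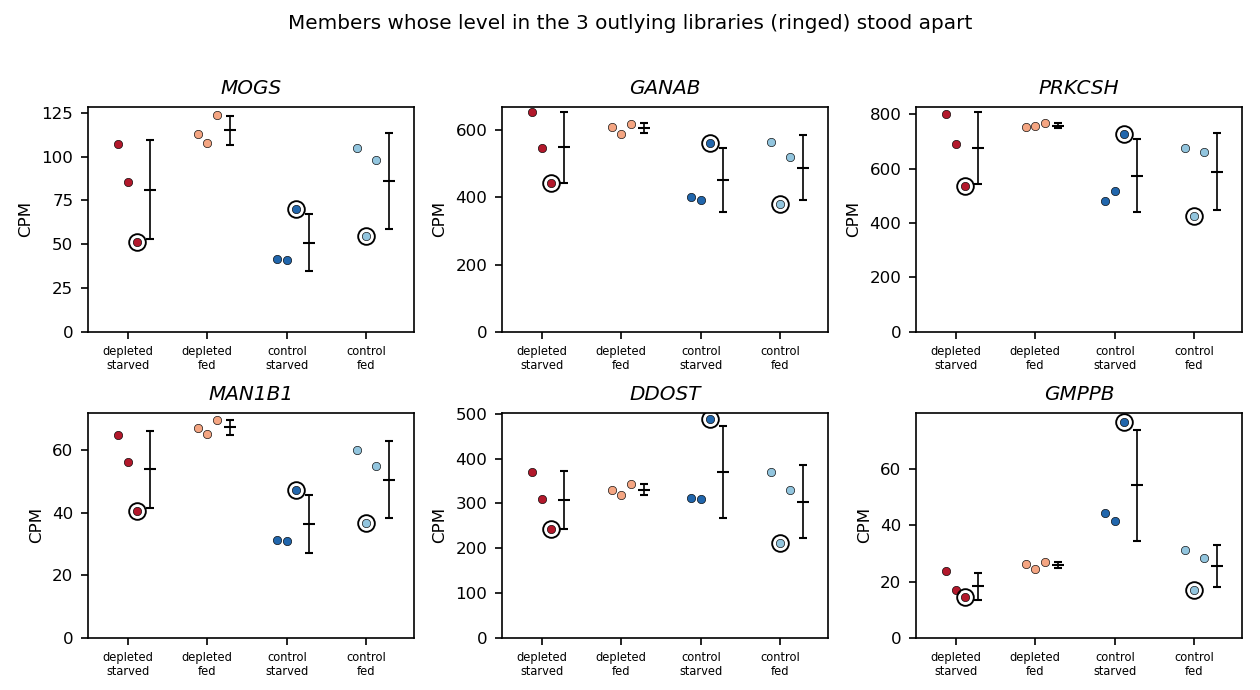
CPM of 6 genes in each library (points), with the mean and SD of 3 libraries beside them and the 3 outlying libraries ringed; the vertical axes start at 0. In each of the 6 genes the ringed starved control library is the highest of its group and the ringed fed control library the lowest.

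In OGDH-depleted cells, starvation called 2 of the 44 members, both lower, which is 4.55% of them, against 7.18% of all genes called and 4.76% called lower. Their median log2 fold change was 0.0008, and 7 members, 15.9% of them, had an unadjusted p under 0.05, against 23.7% of all genes. Libraries of the starved and fed depleted cells did not overlap in 18 of the 44 members and in 7356 of the 18526 genes tested, so a lack of overlap was common. With DESeq2, 3 were called, beside 11% of all genes; the third was CANX, which was higher (log2 fold change 0.19, adjusted p = 0.0073). DOLK had 23.5, 22.8 and 23.6 CPM in starved depleted cells, against 32.3, 32.2 and 31.3 CPM in fed depleted cells. All starved libraries were below all fed ones (log2 fold change -0.45 ± 0.09, SE, adjusted p = 0.0095). MLEC had 133, 135 and 118 CPM in starved depleted cells, against 164, 170 and 175 CPM in fed depleted cells, also without overlap (log2 fold change -0.40 ± 0.09, SE, adjusted p = 0.026). Both calls rest on few libraries: that of DOLK was lost without library 2 of the starved or library 1 of the fed depleted cells (adjusted p = 0.051 to 0.054), and that of MLEC when any library of these groups but starved library 1 was left out (adjusted p = 0.067 to 0.15).

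The 3 members with the largest rise in control cells, CALR, MAGT1 and GMPPB, were not called in depleted cells. CALR had 993, 1044 and 1042 CPM in starved depleted cells, against 935, 975 and 914 CPM in fed depleted cells (log2 fold change 0.12, adjusted p = 0.38). GMPPB had 23.7, 17.1 and 14.4 CPM in starved depleted cells, against 26.1, 24.6 and 27.0 CPM in fed depleted cells. All starved libraries were below all fed ones, opposite in direction to its rise in control cells, but it was not called (log2 fold change -0.49 ± 0.28, SE, adjusted p = 0.3). STT3B, with the third smallest p among the members, had 168, 177 and 190 CPM in starved depleted cells, against 151, 141 and 153 CPM in fed depleted cells; its libraries did not overlap, but it was not called (log2 fold change 0.26, adjusted p = 0.15). MAGT1 had 37.0, 34.7 and 38.7 CPM in starved depleted cells, against 33.0, 31.3 and 35.5 CPM in fed depleted cells, with overlap and a log2 fold change of 0.14 (adjusted p = 0.37).

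The difference between the starvation responses was tested directly, as depleted minus control. It was called in 12 of the 44 members, all negative, which is 27.3% of them; 17.3% of all genes were called and 8.95% were called negative. The members' median was -0.24, against 0.01 for all genes. The smallest p-values were those of CALR, with -1.19 ± 0.12, ALG2, with -1.04 ± 0.13, and MAGT1, with -1.03 ± 0.14 (log2 scale, SE, adjusted p = 5.8e-05, 0.00028 and 0.00041). The others were DHDDS and NUS1 of dolichol supply, PMM2 and GMPPB of the sugar donors, ALG12, the OST subunits RPN1 and OSTC, and UGGT1 and CANX. DOLK, which fell in both kinds of cell, had a difference of 0.28 that was not called (adjusted p = 0.14). The number of members called was 8 to 13 when 1 library was left out. It was 8 without library 2 of the starved or library 1 of the fed depleted cells. The calls of DHDDS, NUS1, PMM2, OSTC and UGGT1 were each lost without at least 1 library (adjusted p = 0.051 to 0.13), that of DHDDS without starved depleted library 3 alone. Without the 3 outlying libraries, 29 members were called, 11 positive and 18 negative, beside 43.0% of all genes, 20.1% positive and 22.9% negative; OSTC was no longer among them. Of the members called only then, 4 had a difference of the other sign in all libraries, where it was not called. These were GANAB, PRKCSH and ALG1, at 0.43, 0.39 and 0.44 without the outlying libraries and -0.03, -0.13 and -0.10 with them, and UGGT2, at -0.62 without and 0.0004 with them.

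In starved cells, OGDH loss was tested against the same starved control libraries that enter the starvation comparison above, so the comparisons are not independent. Of the 44 members, 15 were lower and 5 higher in starved depleted than in starved control cells, or 45.5%, against 28.7% of all genes. Lower members were 34.1%, with 15% of all genes lower, and higher ones were 11.4%, with 13.7% of all genes higher. Libraries of the 2 starved groups did not overlap in 24 of the 44 members and in 7176 of the 18526 genes tested. CALR had 993, 1044 and 1042 CPM in starved depleted cells, against 2936, 3060 and 2873 CPM in starved control cells (log2 fold change -1.53 ± 0.09, SE, adjusted p = 5.2e-07). CANX had 703, 720 and 743 CPM in starved depleted cells, against 1509, 1497 and 1394 CPM in starved control cells (log2 fold change -1.02 ± 0.08, SE, adjusted p = 5.7e-06). For both lectin genes, every depleted library lay below every control one. MAGT1 had 37.0, 34.7 and 38.7 CPM in starved depleted cells, against 88.9, 78.4 and 77.0 CPM in starved control cells (log2 fold change -1.15 ± 0.10, SE, adjusted p = 8.2e-06).

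By role, the genes lower in starved depleted cells were NUS1 and DHDDS of dolichol supply, GMPPB of the sugar donors, ALG14, ALG2 and ALG12 of chain assembly, the 6 OST subunits STT3A, STT3B, RPN1, RPN2, OSTC and MAGT1, and CALR, CANX and UGGT1. GMPPB had a log2 fold change of -1.56 ± 0.28 (SE, adjusted p = 0.0016), close to the -1.53 of CALR. Without the outlying libraries it was -1.09 for GMPPB, against -1.58 for CALR, -1.24 for MAGT1 and -1.10 for CANX. ALG14, the membrane partner of ALG13, had 4.69, 5.12 and 5.02 CPM in starved depleted cells, against 7.01, 6.5 and 8.5 CPM in starved control cells (log2 fold change -0.57 ± 0.14, SE, adjusted p = 0.0081). It was not called for starvation in either kind of cell. The higher genes were DOLK, DPM2, ALG5, DPAGT1 and ALG3, at 0.31, 0.51, 0.72, 0.29 and 0.45 on the log2 scale. With glucose, DPM2, DPAGT1, ALG3 and ALG14 differed in the same direction but were not called, at 0.32, 0.28, 0.435 and -0.37. Without the outlying libraries DPAGT1, ALG3 and ALG14 were called there (adjusted p = 0.021, 0.015 and 0.031). In all libraries the interactions of DPM2, DPAGT1, ALG3 and ALG14 were not called, at 0.19, 0.007, 0.02 and -0.20. Without the outlying libraries those of DPM2 and ALG3 were called, at 0.49 and 0.38. DOLK had 0.03 with glucose. The calls of DOLK, DPM2, DPAGT1, ALG3 and RPN2 were lost when library 1 or 2 of the starved control cells was left out (adjusted p up to 0.18 over the libraries left out); some were also lost without library 1 or 2 of the starved depleted cells. In a fit of only the 2 starved groups, 15 of the 20 calls were kept, beside 22.5% of all genes, and those of ALG14, ALG3, DOLK, DPAGT1 and RPN2 were lost (adjusted p = 0.052 to 0.14). Without the 3 outlying libraries, 32 members were called, 13 higher and 19 lower, beside 52.6% of all genes, 24.6% higher and 28% lower.

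With glucose, OGDH loss called 1 of the 44 members, ALG5, which is 2.27%, against 3.04% of all genes called and 1.59% called higher; the members' median log2 fold change was 0.05. ALG5 had 22.1, 18.8 and 23.6 CPM in fed depleted cells, against 9.95, 10.2 and 7.83 CPM in fed control cells. Every depleted library was above every control one (log2 fold change 1.2 ± 0.13, SE, adjusted p = 0.00071). In starved cells it had 22.3, 22.4 and 21.1 CPM with OGDH depleted, against 13.6, 12.8 and 13.5 CPM in control cells (log2 fold change 0.72 ± 0.12, SE, adjusted p = 0.0013). ALG5 was thus higher in depleted cells under both conditions and was kept when any 1 library was left out. The lectins had the next smallest p-values with glucose. CALR had 935, 975 and 914 CPM in fed depleted cells, against 1198, 1143 and 1233 CPM in fed control cells, and CANX had 642, 620 and 644 CPM, against 770, 822 and 774 CPM. Both were without overlap but not called (log2 fold change -0.34 and -0.31, adjusted p = 0.057 and 0.072). In this comparison 10 members, 22.7% of them, had an unadjusted p under 0.05, against 16% of all genes. Libraries of the fed groups did not overlap in 20 of the 44 members and in 5009 of the 18526 genes tested. DESeq2 called 6 members beside 7.49% of all genes, and 8 were called without the 3 outlying libraries, beside 10.8% of all genes. CALR and CANX were among the members called in both, and also with a minimum count of 50. Without the outlying libraries they were lower, at log2 fold changes of -0.38 and -0.29 (adjusted p = 0.0047 and 0.012). Upper-quartile scaling called CANX but not CALR. Neither was called with any 1 library left out or in a fit of only the fed groups.

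Levels were compared between genes per length. The length takes in all annotated exons of a gene, so the order is approximate. In fed control cells CALR led with 425 CPM per kb of exon, followed by the OST subunit DAD1 with 117, PRKCSH with 114, DDOST with 112 and GANAB with 97.2. The means of these last 4 genes lay close together, and their order was another without the outlying libraries: PRKCSH with 130, DDOST with 128, DAD1 with 122 and GANAB with 108 CPM per kb in fed control cells. In starved control cells CALR had 1050 CPM per kb, DDOST 136, PRKCSH 111, DAD1 106 and GANAB 89.9 with all libraries, and 1070, 114, 96.4, 104 and 78.9 CPM per kb without the outlying one. CANX had 107 CPM per kb in starved and 57.3 CPM per kb in fed control cells, above GANAB in the starved and below it in the fed cells, with or without the outlying libraries. In CPM, CANX was above GANAB in both, with 1467 against 452 in starved and 789 against 489 in fed control cells. Its place per kb thus rests on the exon lengths, 13764 bases for CANX and 5030 for GANAB.

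Other genes of the pathway were taken from lists, which were chosen with earlier results of these data known. All 12 genes of a list of ER chaperones and folding factors rose in starved control cells, with a median log2 fold change of 2.22, and 0 were called for starvation in depleted cells, where their median was 0.14. Of all genes, 17% were called higher in starved control cells, and 7.18% were called in either direction for starvation in depleted cells. HSPA5, the chief ER chaperone, averaged 821 ± 32.8 CPM in starved depleted cells and 685 ± 6.75 CPM in fed depleted cells, against 11446 ± 686 CPM in starved control cells and 798 ± 42.7 CPM in fed control cells (SD, n = 3 each). In the starvation of depleted cells 3 of the 12 had an unadjusted p under 0.05, against 23.7% of all genes. DESeq2 called 3 of them as higher, beside 11% of all genes called in either direction. Both the interaction and OGDH loss without glucose called all 12 as lower, beside 8.95% and 15% of all genes. The members' median of 0.24 in starved control cells was thus smaller than that of the chaperones.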

How the data were processed

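Messenger RNA of A375 cells was measured in 12 libraries, whose titles give the group and the number of each. The deposited values are raw counts per gene name from featureCounts 2.0.1, per the file headers. The authors' command, in the same headers, ignored strand and dropped fragments with several places or several genes, so the 12 members that share more than 10% of their exon bases with another gene name lose fragments there. The build is hg38, per the submitters' processing notes; the aligner and the library kit are not stated in the sources used. The table holds 61209 gene names, of which 18526 were tested and 42683 fell below the filter (filterByExpr of edgeR 4.0.16 in R 4.3.3, minimum count 10, minimum total count 15).

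Counts were scaled by TMM, and levels are CPM relative to the scaled library sizes. CPM per kb is the CPM divided by the exon length in the deposited table. That length takes in all annotated exons of a gene and can exceed the length of the RNA expressed. A model with a mean for each of 4 groups was fitted to all 12 libraries and tested with edgeR's quasi-likelihood test over 5 contrasts, adjusted by the Benjamini-Hochberg method over all genes tested. Replicate pairs had a chi-square per degree of freedom of 3.91 to 160, so no library repeats another. Alternatives were DESeq2 1.42.0, other scalings and filters, only the compared groups, a replicate block, a test against a 1.5-fold change and leaving out each library; leaving out the 3 outlying libraries together was chosen after seeing the data.

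The members and lists were chosen with earlier results of these data known. Library values are given for the 2 members with the smallest p for starvation in control cells in each role group, the 3 with the smallest p in each other contrast and up to 3 that moved against most of their group; those of DHDDS, GMPPB, ALG14, TUSC3, UGGT1 and MOGS were added after their values were seen. Promoter windows and their sequences are from RefSeq (GRCh38.p14).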

Additional observations from a re-analysis of the deposited data

Results flagged for a closer look

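The difference between the starvation responses, OGDH-depleted minus control, passed the test of that difference itself in 12 of the 44 members (edgeR interaction contrast, adjusted p under 0.05), and for this reason they are set out here on the log2 scale. Of the genes of dolichol supply, DHDDS had -0.69 and NUS1 had -0.59. Of the sugar donor genes, PMM2 had -0.48 and GMPPB had -1.57. ALG2 of the cytosolic face had -1.04 and ALG12 of the luminal face had -1.09. Among the oligosaccharyltransferase subunits, RPN1 had -0.52, OSTC had -0.66 and MAGT1 had -1.03. In the calnexin cycle, UGGT1 had -0.48, CALR had -1.19 and CANX had -0.71. The value is negative for each of the 12, since each had a smaller or more negative starvation change in depleted than in control cells. CALR, CANX, MAGT1, ALG2, GMPPB, ALG12 and RPN1 passed with any 1 library left out. GMPPB and ALG12 share exon bases with other gene names. Without the 3 outlying libraries the value was nearer 0 for GMPPB, ALG12, DHDDS, OSTC, PMM2 and RPN1, at -0.88, -0.73, -0.47, -0.40, -0.35 and -0.50. OSTC no longer passed there (adjusted p = 0.061). For NUS1, UGGT1, ALG2, MAGT1, CANX and CALR it was further from 0, at -0.83, -0.66, -1.17, -1.17, -0.81 and -1.20.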

How the results depend on the processing

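For 14 members named by the rule, OGDH and HSPA5, the reported call was set against each alternative in 1280 comparisons: 1191 kept the call, 54 lost it, 35 gained it and 0 called values changed direction. Over all 44 members, 4 that were not called with all libraries had an interaction of the other sign, and called, without the 3 outlying libraries (ALG1, GANAB, PRKCSH and UGGT2). Leaving out 1 library at a time gave 0 to 2 members for starvation in depleted cells, 18 to 23 for starvation in control cells, 15 to 23 for OGDH loss without glucose, 1 for OGDH loss with glucose and 8 to 13 for the interaction. Against a 1.5-fold change, 0, 4, 4 and 3 members were called for starvation in depleted cells, starvation in control cells, OGDH loss without glucose and the interaction. Of the 18526 genes tested, 220, 2287, 1653 and 1080 were. The members' share was thus below that of all genes in both starvation comparisons and near it in the others. Without a filter on low counts, 0 members were called for starvation in depleted cells and 6 for the interaction. Without the 3 outlying libraries, 31 were called for starvation in control cells, 32 and 8 for OGDH loss without and with glucose, and 29 for the interaction. For OGDH loss with glucose, upper-quartile scaling gave 2, a minimum count of 50 gave 3 (43 members tested) and DESeq2 gave 6. With a replicate block, starvation in depleted cells called 1 member, and the other contrasts 18, 18, 1 and 10, in the order given for left-out libraries. The deviations of same-numbered libraries from their group means had correlations of -0.687 to 0.638, so the libraries of a number did not deviate together in every pair. With 3 libraries per group, these values cannot show whether the numbers mark a shared batch or are only labels.

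Over all genes, starvation in depleted cells called 1330 genes, but 2031 with DESeq2, 220 against a 1.5-fold change, 3313 without the outlying libraries and 583 to 639 without any 1 of 5 libraries. OGDH loss with glucose called 563, but 1172 with DESeq2, 215 with only the compared groups, 342 with the block, 28 against a 1.5-fold change, 2021 without the outlying libraries and 172 to 288 without any 1 of 5 libraries. Against a 1.5-fold change and without the outlying libraries, starvation in control cells called 2287 and 11364 in place of 6400, OGDH loss without glucose 1653 and 9874 in place of 5310, and the interaction 1080 and 8077 in place of 3196. A fit of only the compared groups does not apply to the interaction. The cause was not tested for any of these changes. Depth limits the members with few fragments most; the lowest count of any of them was 17, for SRD5A3.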

Other observations

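Genes downstream of and beside the pathway moved in both directions in starved relative to fed control cells. Of 14 lectins and enzymes of glycoprotein disposal and export, 6 rose and 1 fell, with a median log2 fold change of 0.33. EDEM1, which takes part in the disposal of misfolded glycoproteins, rose by 1.18 on the log2 scale, ERLEC1, an ER lectin, by 1.13 and OS9, another ER lectin of disposal, by 0.63. NGLY1, the cytosolic enzyme that removes N-glycans, rose by 0.62, and the export receptor LMAN1 and its partner MCFD2 by 0.75 and 0.34. LMAN2L, a lectin of the early secretory pathway, had -1.08. The interaction passed the test for EDEM1, OS9 and MCFD2, at -1.15, -0.51 and -0.53, and for LMAN2L, at 0.91. In depleted cells 1 of the 14, NGLY1, was called for starvation, at 0.49. Of 19 genes of Golgi N-glycan processing, 2 rose (MAN1A2 and MAN2A1, mannosidases, at 0.65 and 0.78) and 3 fell (MGAT5, a branching enzyme, ST6GAL1, a sialyltransferase, and MAN1A1, at -0.93, -0.36 and -0.53). In depleted cells 2 of the 19 rose on starvation, FUT8, the core fucosyltransferase, at 0.52 and ST6GAL1, just past the threshold, at 0.30, and 0 fell. The interaction was positive and passed the test for FUT8, MAN1A1, MGAT5 and ST6GAL1, at 0.67, 0.72, 0.65 and 0.67, and was negative and called for 0 of the list. Of all genes, 8.3% had a positive and 8.95% a negative interaction call. Without the 3 outlying libraries, 6 of the 19 were called positive and 4 negative, beside 20.1% and 22.9% of all genes.

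Dolichol-linked mannose also serves GPI anchors and protein O- and C-mannosylation. Of 20 genes of GPI anchor synthesis, 1 rose and 3 fell in starved control cells, PIGA at 1.02 and PIGC, PIGS and PIGX at -0.60, -0.48 and -0.32. Of 12 genes of O- and C-mannosylation, 2 rose and 5 fell, with a median log2 fold change of -0.39. DPY19L3, a C-mannosyltransferase, had 0.58 and TMTC2 had 0.39, against -1.09 for TMTC1, -1.02 for TMTC4, -0.62 for POMK, -0.46 for POMGNT2 and -0.42 for POMT2. In depleted cells 0 genes of either list were called for starvation, with DESeq2 as with edgeR. In each list 2 genes had an unadjusted p under 0.05, against 23.7% of all genes. Of 6 further genes of the transferase and its lipid-linked donor, ALG10B fell, and KRTCAP2, a subunit, fell by 0.76 in starved relative to fed depleted cells. Beside these lists 34.5% of all genes were called for starvation in control cells and 7.18% for starvation in depleted cells. The lists were chosen with earlier results of these data known. Without the 3 outlying libraries, the counts for starvation in control cells were 7 higher and 3 lower in disposal and export and 4 and 10 in the Golgi list. They were 5 and 7 of 19 in the GPI list, and 3 and 6 in the mannosylation list. Of all genes, 60.5% were called in that comparison, 30.5% higher and 30% lower. For starvation in depleted cells the counts of the lists were then 1 and 2, 3 and 2, 1 and 1, and 0 and 0, in the same order. Of all 18776 genes, 3313 were called for starvation in depleted cells in that fit.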
